A study of Homo sapiens with 4 samples.

Results

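In SK-N-SH neuroblastoma cells, 73 single-transcript genes had fewer reads in both libraries with RP5-998N21.4 overexpression (OE) than in both vector control libraries. A single-transcript gene is one that the deposited count table lists with 1 transcript. Its count is that of the transcript and cannot shift between isoforms listed there for the same gene. A later annotation lists some of these transcripts under another gene, as for the members AC004840.9 and RP11-479G22.8. The table held 57820 genes, of which 35613 were single-transcript genes, and 2414 of these had a mean of at least 4 CPM (the count divided by the column total and multiplied by 1000000) over the 4 libraries. The members were chosen by these CPM values and were those among the 2414 whose lower vector control value exceeded 1.5 times the higher OE value. This ratio of the lower control value to the higher OE value is called the gap. The 73 members made up 3.02% of the 2414 genes, and 89 genes (3.69%) met the mirrored rule in the other direction. With TMM or RLE library sizes in place of column totals, 90 genes were lowered and 68 raised, so which direction held more genes depends on the scaling. Because these 4 libraries chose the members, their values are given as a description without a test.

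SK-N-SH cells are a long-established line derived from a human neuroblastoma, and RP5-998N21.4 is a long noncoding RNA (lncRNA). Total RNA was sequenced from wild type SK-N-SH cells carrying an empty lentivirus vector with no insert (vector control, n = 2) and from SK-N-SH cells carrying a recombinant lentivirus with RP5-998N21.4 (OE, n = 2), which the study's methods place under the EF1a promoter. The comparison asks which transcripts differed in amount when this lncRNA was overexpressed. All 4 libraries came from 1 cell line with 1 construct per condition, and nothing in the labels says whether the 2 libraries of a condition came from separate cultures, so the spread between them may be technical. In RNA from a whole culture, fewer cells of a type and less RNA per cell cannot be told apart.

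Column totals were 23785164 and 24098041 for the vector control and 24601728 and 28307591 for OE. RP5-998N21.4 itself had 32 and 33 counts in the control libraries and 2407 and 2808 counts in OE, in the direction of the labels. Of the 12 sympathetic and neuroblastoma markers examined, 11 had a mean of at least 1 CPM and TH had 0 counts in every library. Their summed CPM was 605 and 662 in the vector control and 1115 and 1059 in OE, and the part of this shift in the results was not tested. The 7 markers of blood, epithelial, endothelial, glial and liver cells all had a mean under 1 CPM, 4 of them had 0 counts, and their summed CPM lay between 0.732 and 1.99.

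A gene annotated with 1 transcript is often a gene without introns, a retrocopy (a reverse-transcribed copy of another gene's mRNA inserted elsewhere in the genome), a small RNA gene or a locus that has been little curated. Many retrocopies are processed pseudogenes, and reads from them are hard to separate from reads of the parent gene. Replication-dependent histones, mitochondrial tRNAs, many G protein-coupled receptors and the first exons of clustered protocadherins are functional genes with simple structures. The members included all of these kinds.

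By the GENCODE annotation of GRCh37, the build of the study, 37 of the 73 members were protein coding, 22 were pseudogenes, 4 were lncRNAs, 3 were mitochondrial tRNAs and 1 was annotated as a microRNA. The annotation gave no kind for the other 6. Protein-coding genes made up 50.7% of the members and 27.1% of the 2414 genes, and pseudogenes made up 30.1% of the members and 50.8% of the 2414 genes. Counted the other way, 37 of 655 protein-coding genes (5.65%), 22 of 1227 pseudogenes (1.79%) and 4 of 343 lncRNAs (1.17%) were lowered. The mirrored rule took 39 protein-coding genes (5.95%), 25 pseudogenes (2.04%) and 17 lncRNAs (4.96%). Protein-coding genes thus made up a larger share of both sides than of the 2414 genes, whereas more lncRNAs were raised than lowered. With TMM library sizes the lowered and raised genes numbered 43 and 34 for protein-coding genes, 28 and 16 for pseudogenes and 5 and 11 for lncRNAs, so the order turned round for protein-coding genes and pseudogenes and not for lncRNAs. These shares are a description, since the kind of a gene also goes with its count and with the reads it shares.

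**Figure D1:**
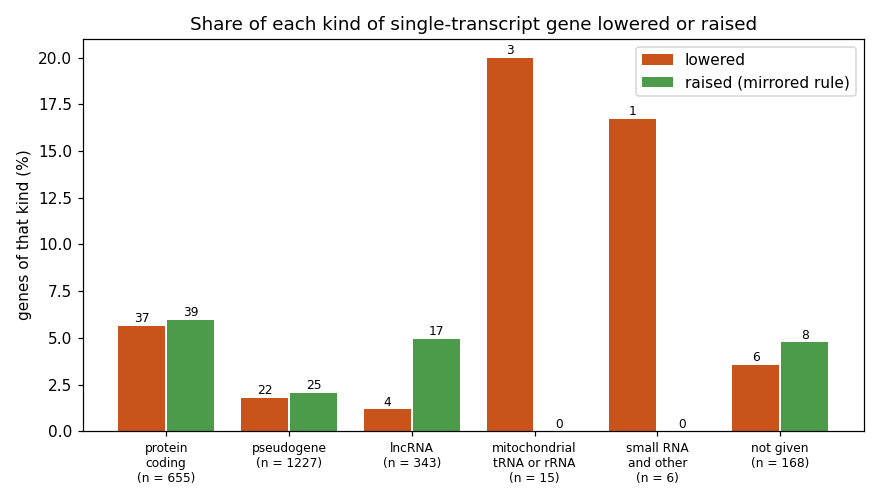
Share of each kind of single-transcript gene of at least 4 CPM (vertical axis, %) that was lowered (orange) or raised by the mirrored rule (green), with the number of genes above each bar and the number examined under each label. The bars of the protein-coding genes were near each other (5.65% and 5.95%, with the order turned round under TMM library sizes), and those of the lncRNAs were not (1.17% and 4.96%).

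The median member transcript was 1829 nucleotides long, against 1334 for all of the 2414 genes with an annotated transcript, and its GC content was 50.4% against 47.1%. Within protein-coding genes these differences were smaller, with a median of 3480 against 3099 nucleotides and of 50.8% against 49.3% GC. Of the 69 member transcripts in the annotation, 37 had a single exon (53.6%, against 66.4% of all). A near-identical copy elsewhere in the table (at least 90% identity over at least 50% of the transcript) was found for 27 of the 69 (39.1%, against 58.8% of all), and an exon shared with another gene for 18 (26.1%, against 25.2%). The members with a position lay on the mitochondrial genome and on every nuclear chromosome except 13, 15, 18, 21 and Y, with 12 on chromosome 1 and 7 on chromosome 11, which held 267 and 87 of the 2414 genes.

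The members together held 8097 and 8109 CPM in the vector control libraries and 4479 and 4542 CPM in the OE libraries. The 5 members with the most counts held 50.1% of the vector control sum and the 10 with the most held 71.4%. The gap had a median of 1.65, and 55 of the 73 members had a gap between 1.5 and 2. The median log2 ratio of mean CPM (OE over vector control) was -0.90 for the members and 0.05 for all of the 2414 genes. Libraries of the same condition differed by a median of 1.07-fold in the vector control and 1.06-fold in OE over the members. This spread exceeded 1.5-fold for 3 members in the vector control and for 2 in OE. No member had fewer than 109 counts in a vector control library, and 13 had fewer than 100 counts in at least 1 OE library.

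**Figure D2:**
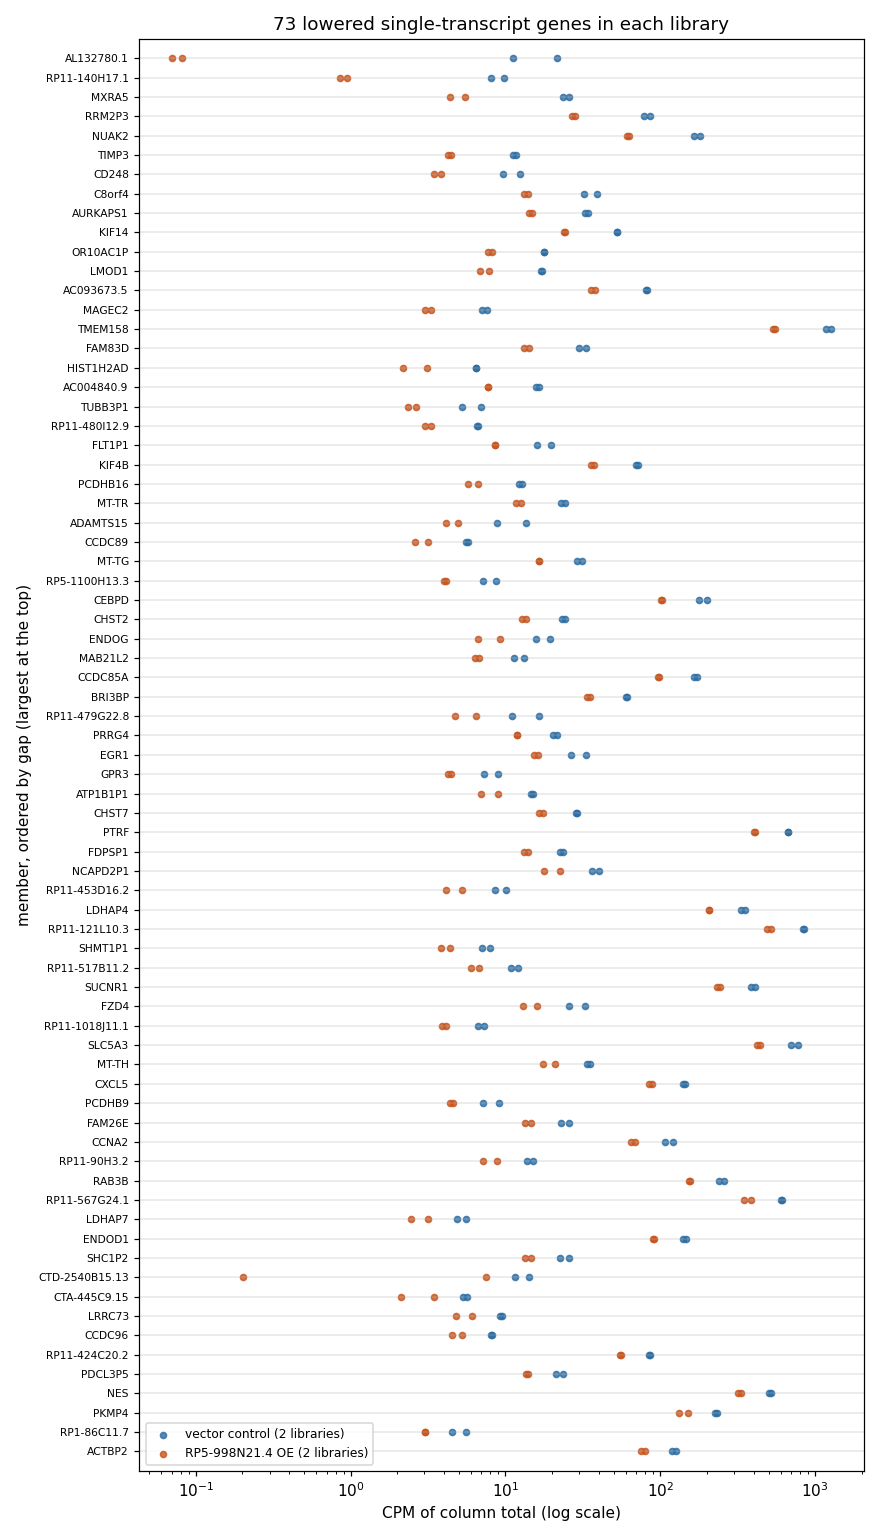
CPM (log scale) of each of the 73 members in the 2 vector control libraries (blue) and the 2 OE libraries (orange), ordered by gap with the largest at the top. The rule keeps the colours apart in every row, and the distance between the points of 1 colour is the spread between libraries of a condition, which was widest for CTD-2540B15.13 in OE.

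**Figure D3:**
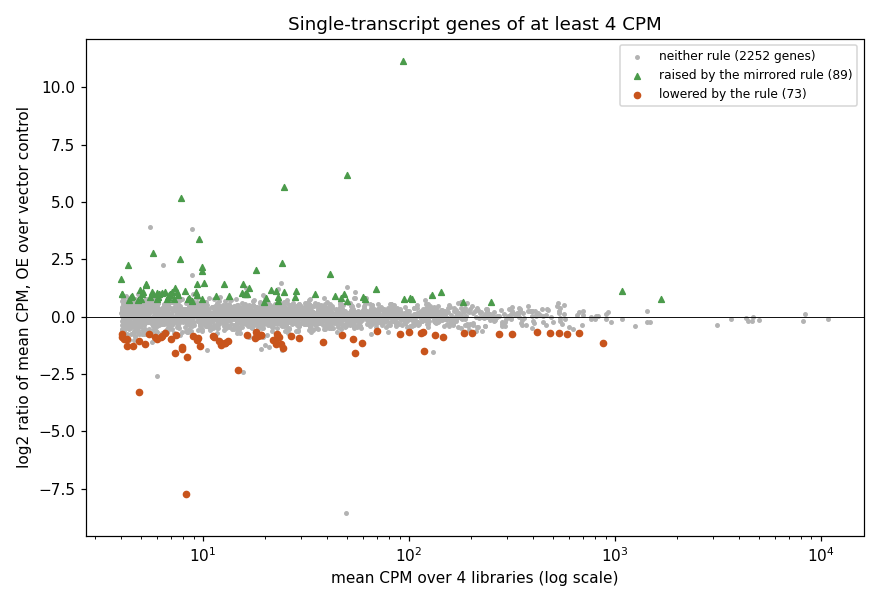
Log2 ratio of mean CPM, OE over vector control (vertical axis), against mean CPM over the 4 libraries (horizontal axis, log scale) for the 2414 genes. The 73 members (orange) spread from 4.03 to 879 CPM, and 2 of them lie below -2.5 on the log2 scale, AL132780.1 and RP11-140H17.1.

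The largest gap belonged to a short transcript inside another gene. AL132780.1 is 109 nucleotides long, is annotated as a microRNA, and lies at chr14:23502739-23502847 (minus strand), wholly within an exon of PSMB5, which encodes a catalytic subunit of the proteasome. It had 266 and 519 counts in the control libraries and 2 counts in each OE library. The counts pooled by condition, 785 against 4, gave a ratio of 217 after scaling to the totals, with an exact 95% interval of 84.4 to 798 that covers counting error only. The 2 control libraries differed from each other by 1.93-fold. PSMB5 itself had 43.4 and 40.1 CPM in the vector control and 33.4 and 36.5 CPM in OE, lower without overlap but with a gap of 1.10. The 2 PSMB5 transcripts with counts whose coding exons contain the member had 120 and 113, and 484 and 457, counts in the control libraries, and 59 and 55, and 347 and 366, in OE. Another PSMB5 transcript, in which the shared bases are not coding, had 428 and 397 counts in the control libraries and 416 and 612 in OE. How the counting divided reads between a short transcript and the gene that contains it is not given in the sources used here, and its part was not tested.

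The second largest gap, 8.42, was likewise within another gene. RP11-140H17.1 is a lncRNA of 2421 nucleotides at chr16:69497747-69500167, all of it inside an exon of CYB5B on the same strand. CYB5B encodes a cytochrome b5 of the outer mitochondrial membrane. RP11-140H17.1 had 191 and 235 counts in the control libraries and 21 and 27 in OE. CYB5B had 150 and 183 counts in the control libraries and 2750 and 3398 in OE, so host and member went in opposite directions and the sum of both was higher in OE. The one CYB5B transcript that contains RP11-140H17.1 was listed with 0 counts in every library, and the shared bases lie outside its coding sequence. Reads from the shared bases cannot be told apart.

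MXRA5, a secreted matrix-remodelling protein of chromosome X, had 25.9 and 23.7 CPM in the vector control and 4.39 and 5.48 CPM in OE. Its gap of 4.33 was the largest of any protein-coding member. The fitted log2 fold change (edgeR, OE against vector control) was -2.39 ± 0.17 (standard error, n = 2 per condition). MXRA5P1, a near copy of MXRA5, had 16 and 8 counts in the control libraries and 0 in each OE library. TIMP3, a matrix-bound inhibitor of metalloproteinases, had 11.7 and 11.2 CPM in the vector control and 4.27 and 4.45 CPM in OE. CD248, the transmembrane glycoprotein endosialin, had 9.59 and 12.3 CPM in the vector control and 3.46 and 3.85 CPM in OE. The fitted log2 fold changes of TIMP3 and CD248 were -1.46 ± 0.14 and -1.65 ± 0.20. TIMP3 had close libraries in both conditions, and for CD248 the 2 control libraries lay further apart than the 2 OE libraries.

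NUAK2, a serine/threonine kinase related to AMPK, had 166 and 181 CPM in the vector control and 62.7 and 61.1 CPM in OE. Its gap was 2.65 and its fitted log2 fold change -1.55 ± 0.09, with 1543 counts in the lower OE library. Its libraries lay close together in both conditions. C8orf4 (now TCIM), a small positive regulator of Wnt signalling, had 38.8 and 32.0 CPM in the vector control and 13.2 and 13.95 CPM in OE. TMEM158, a membrane protein first found as induced by Ras, had 1171 and 1257 CPM in the vector control and 553 and 534 CPM in OE. TMEM158 held the most counts of all members, between 13614 and 30295 per library, and its standard error was among the smallest (log2 fold change -1.22 ± 0.06). Scaled to transcript length, its mean was 666 CPM per kilobase in the vector control and 298 CPM per kilobase in OE. TMEM158 shares 861 bases with the pseudogene AC010170.1 on the same strand, which had 0 counts in every library.

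Receptors and a ligand were found at smaller gaps. SUCNR1, the receptor for succinate, had 409 and 387 CPM in the vector control and 231 and 242 CPM in OE. CXCL5, a chemokine that attracts neutrophils, had 145 and 139 CPM in the vector control and 88.5 and 84.7 CPM in OE. FZD4, a Frizzled receptor for Wnt ligands and norrin, had 25.7 and 32.7 CPM in the vector control and 16.1 and 13.1 CPM in OE. FZD4 shares 1399 exon bases with PRSS23 on the opposite strand, which had 10381 and 10248 counts in the control libraries and 4825 and 5333 in OE. Whether strand was used in the counting is not given in the sources used here, so reads of FZD4 and PRSS23 cannot be told apart in the shared stretch. GPR3, a receptor that signals through Gs without a ligand, had 8.91 and 7.30 CPM in the vector control and 4.43 and 4.27 CPM in OE. In the list of G protein-coupled receptors, 2 of 17 genes of at least 4 CPM were lowered (FZD4 and GPR3), 1 was raised and 14 were neither. Over all 2414 genes, 3.02% were lowered and 3.69% raised. The list was built from gene symbols and does not hold SUCNR1.

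Both members in the lists of transcription factors came from the list of AP-1, C/EBP and immediate early genes. CEBPD, a basic leucine zipper factor, had 178 and 201 CPM in the vector control and 103 and 102 CPM in OE. EGR1, a zinc finger factor of the immediate early response, had 33.0 and 26.6 CPM in the vector control and 16.1 and 15.2 CPM in OE. That list held 8 single-transcript genes of at least 4 CPM, too few to read 2 members against the 3.02% of all genes. The other 6 met neither rule, among them JUN, with 412 and 391 CPM in the vector control and 455 and 437 CPM in OE. Of the 8, 4 were lower in both OE libraries than in both controls and 3, with JUN, were higher. With TMM library sizes 4 were lower and 1 higher. Over the 2414 genes, 25.9% were lower and 35.5% higher without overlap. The other lists were likewise limited to genes of at least 4 CPM. No member was found among 32 genes with a zinc finger gene symbol (a list that does not hold EGR1), 15 SOX, FOX, POU and homeobox factors and 4 bHLH and ID factors, where the mirrored rule took 3, 0 and 2 genes. Nor was any found among 42 ribosomal protein pseudogenes (2 raised), 49 named lncRNAs (4 raised), 14 heat shock genes, 4 potassium channel genes, or 7 genes in lists of MAPK feedback genes, KLF factors, microRNA hosts, small nuclear RNAs and mitochondrial-origin pseudogenes. At the 3.02% of all genes lowered, lists of this size would hold few or no members, so nothing is read from these zeros.

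Several members encode proteins of the mitotic spindle or the cell cycle. KIF14, a kinesin of cytokinesis, had 52.6 and 52.4 CPM in the vector control and 24.0 and 24.2 CPM in OE. FAM83D, a spindle protein, had 33.1 and 29.7 CPM in the vector control and 13.2 and 14.1 CPM in OE. CCNA2, cyclin A2, had 119.9 and 107 CPM in the vector control and 68.3 and 65.0 CPM in OE. KIF14 had the closest libraries of the 3, and its fitted log2 fold change was -1.19 ± 0.09, against -1.27 ± 0.12 for FAM83D and -0.83 ± 0.10 for CCNA2. CCNA2 shares 254 exon bases with EXOSC9 on the opposite strand, and EXOSC9 had 106 and 123 counts in the control libraries and 713 and 122 in OE. KIF4B, a retrogene of the chromokinesin KIF4A, had 72.3 and 69.6 CPM in the vector control and 37.1 and 35.5 CPM in OE. HIST1H2AD, a replication-dependent histone H2A gene, had 6.47 and 6.43 CPM in the vector control and 3.13 and 2.19 CPM in OE. It was 1 of 10 histone genes of at least 4 CPM (3.02% of all genes were lowered). The grouping by role in this paragraph was made after the values were seen and no count is drawn from it.

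NES (nestin), an intermediate filament protein of neural progenitors, had 515 and 502 CPM in the vector control and 332 and 317 CPM in OE. PTRF (now CAVIN1), which coats caveolae, had 666 and 670.2 CPM in the vector control and 408 and 401 CPM in OE. RAB3B, a small GTPase of regulated exocytosis, had 259 and 240.1 CPM in the vector control and 155 and 154 CPM in OE. The fitted log2 fold changes of these 3 were -0.71 ± 0.06, -0.79 ± 0.05 and -0.75 ± 0.07. SLC5A3, the sodium/myo-inositol cotransporter, whose gene was not found in the annotation, had 774 and 696 CPM in the vector control and 424 and 437 CPM in OE. LMOD1, an actin nucleator of smooth muscle, had 16.9 and 17.2 CPM in the vector control and 6.83 and 7.84 CPM in OE. Its gap of 2.16 was larger than those of the other genes in this paragraph. LMOD1 shares 536 bases with the lncRNA RP11-307B6.3 on the opposite strand. That lncRNA had 1 and 6 counts in the control libraries and 3 and 0 in OE.

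The lists of sulfo- and glycosyltransferases and of clustered protocadherins had 2 members each. The member AC004840.9, described below, is now annotated under CHST12 and was not on the first list. CHST2, which sulfates N-acetylglucosamine, had 23.3 and 24.3 CPM in the vector control and 13.5 and 12.7 CPM in OE. CHST7, a related sulfotransferase, had 28.8 and 28.4 CPM in the vector control and 17.4 and 16.4 CPM in OE. They were 2 of the 8 single-transcript sulfo- and glycosyltransferase genes of at least 4 CPM, and none of the 8 was raised. Of the 2414 genes, 3.02% were lowered and 3.69% raised. In lists this short, 1 gene is a large share. B3GNT1 of the same list lay just outside the rule with a gap of 1.496, and CHST3 had a log2 ratio of 0.30. PCDHB16 had 12.2 and 12.7 CPM in the vector control and 6.67 and 5.76 CPM in OE, and PCDHB9 had 9.04 and 7.14 CPM in the vector control and 4.55 and 4.42 CPM in OE. Protocadherins are cell adhesion proteins of neurons, and the other 19 of the 21 clustered genes of at least 4 CPM met neither rule. PCDHB9 has a near copy in PCDHB10, which had 254 and 284 counts in the control libraries and 218 and 345 in OE.

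The remaining protein-coding members with a mean of at least 10 CPM had gaps from 1.54 to 2.16. OR10AC1P, an olfactory receptor locus, had 17.7 and 17.6 CPM in the vector control and 7.76 and 8.16 CPM in OE. On the opposite strand it shares 75 bases with EPHA1-AS1. EPHA1-AS1 had 255 and 180 counts in the control libraries and 74 and 79 in OE. CCDC85A had 166 and 172 CPM in the vector control and 97.7 and 96.8 CPM in OE. ENDOG, the mitochondrial nuclease endonuclease G, had 15.8 and 19.3 CPM in the vector control and 9.27 and 6.61 CPM in OE. ENDOG was the one of these with the widest spread in OE, whereas OR10AC1P and CCDC85A had close libraries in both conditions. ENDOG shares 459 bases with C9orf114 on the opposite strand. C9orf114 had 1721 and 1772 counts in the control libraries and 1861 and 2587 in OE. CCDC85A shares 1983 bases with the lncRNA RP11-482H16.1 (8 and 15 counts in the control libraries, 5 and 7 in OE). It also shares 277 bases on the opposite strand with AC007743.1 (1593 and 1376 control counts, 999 and 1204 in OE). Reads from these shared bases cannot be told apart. BRI3BP, PRRG4, FAM26E (now CALHM5) and ENDOD1 had fitted log2 fold changes between -0.87 and -0.73. Of the protein-coding members under 10 CPM, MAGEC2, a cancer-testis antigen, had the largest gap after TIMP3 and CD248 (2.12), with 7.57 and 7.05 CPM in the vector control and 3.01 and 3.32 CPM in OE. ADAMTS15, a secreted metalloproteinase, had 13.7 and 8.80 CPM in the vector control, a 1.55-fold spread, and 4.92 and 4.13 CPM in OE. LRRC73 was 1 of 6 leucine-rich repeat genes of at least 4 CPM (3.02% of all genes were lowered), with a gap of 1.53.

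All 3 mitochondrial members were tRNA genes. Mitochondrial tRNAs are cut out of long transcripts of the circular genome, in which they lie between the rRNA and protein-coding genes. Their sequences, read from GRCh37, are shown because the 3 genes share a kind that few members have, with the anticodon in capitals.
MT-TG: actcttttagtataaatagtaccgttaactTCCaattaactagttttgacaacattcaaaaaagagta
MT-TR: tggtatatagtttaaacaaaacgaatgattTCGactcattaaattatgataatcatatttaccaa
MT-TH: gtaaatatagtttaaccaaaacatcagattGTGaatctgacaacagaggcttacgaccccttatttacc
MT-TG (glycine, 68 bases at chrM:9991-10058), MT-TR (arginine, 65 bases at chrM:10405-10469) and MT-TH (histidine, 69 bases at chrM:12138-12206) lie on the same strand. MT-TG and MT-TR are 347 bases apart.

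MT-TG had 29.2 and 31.0 CPM in the vector control and 16.4 and 16.6 CPM in OE. MT-TR had 547 and 582 counts in the control libraries and 310 and 333 in OE. MT-TH had 35.1 and 33.4 CPM in the vector control and 21.0 and 17.5 CPM in OE. The mitochondrial tRNAs did not all have the same direction. Of 13 mitochondrial tRNAs with at least 4 CPM, 8 were lower in both OE libraries than in both controls, 4 were higher in both and 1 overlapped. Over the 2414 genes, 25.9% were lower and 35.5% higher without overlap. With TMM library sizes, 8 of the 13 tRNAs were lower and 3 higher, and 763 genes were lower and 687 higher. MT-TC had the highest log2 ratio, with 107 and 109.7 CPM in the vector control and 155 and 133 CPM in OE. The median log2 ratio was -0.56 for the 13 tRNAs, -0.12 for the 13 mitochondrial mRNAs and 0.18 for the 2 rRNAs. With column totals, 11 of the 13 mRNAs were lower without overlap and 0 higher, and the 2 rRNAs were higher. In all, 3 of 28 mitochondrially encoded genes of at least 4 CPM were members and none was raised (3.02% and 3.69% of the 2414 genes). A tRNA is shorter than the usual sequenced fragment, and which reads of the long precursor were counted to it is not given in the sources used here.

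**Figure D4:**
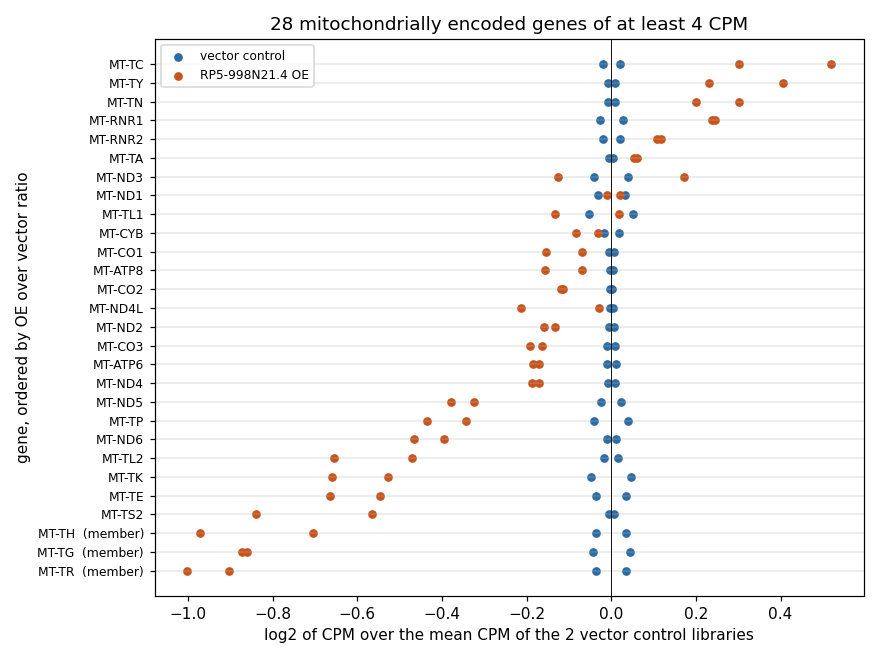
Log2 of CPM over the mean of the 2 vector control libraries (horizontal axis) for the 28 mitochondrially encoded genes of at least 4 CPM, in the vector control (blue) and OE (orange) libraries. The 3 member tRNAs lie at the lower end of the order, from -0.83 to -0.95 in mean log2 ratio, and MT-TC, MT-TY and MT-TN lie at the upper end.

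Of the 22 pseudogene members, 18 had a protein-coding near copy with no shared exon, taken here as the parent. In 13 of these 18 pairs (72.2%) the parent, too, was lower in both OE libraries than in both controls, and in 8 pairs (44.4%) by a gap above 1.5. Over all 1109 pseudogenes with such a parent, the parent was lower in both OE libraries for 216 (19.5%) and by a gap above 1.5 for 31 (2.8%). LDHA is the parent of 2 members and counts as 2 pairs. Over distinct parents, 12 of 17 (70.6%) were lower without overlap and 7 (41.2%) by a gap above 1.5, against 184 (19.6%) and 23 (2.45%) of 940 for all pseudogenes. Among genes with more than 1 transcript and at least 4 CPM, 25.6% were lower without overlap. The parent was higher in both OE libraries for 2 of the 18 pairs (11.1%, against 37.1% of the 1109), FDPSP1 with FDPS and RP11-517B11.2 with BCL2L12. Member and parent are not independent measurements, because reads that match both could be counted to either.

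RRM2P3, on chromosome X, had the largest gap of the pseudogenes (2.79). It is a processed copy of RRM2, the small subunit of ribonucleotide reductase, which makes deoxyribonucleotides for DNA synthesis. RRM2P3 had 2047 and 1897 counts in the control libraries and 659 and 798 in OE. RRM2 had 2195 and 2168 counts in the control libraries and 830 and 105 in OE, so the parent's OE libraries differed far more from each other than those of the copy. The aligned transcripts had 58 mismatches in 1163 bases (7 further gap positions), with a longest identical stretch of 108 bases. The first 90 coding bases of RRM2 (chr2:10262926-10263015, plus strand) and the matching bases of RRM2P3 (chrX:44169633-44169722, minus strand) are shown from GRCh37 with the 8 mismatches in capitals, as a measure of how alike reads from both would be.
RRM2P3: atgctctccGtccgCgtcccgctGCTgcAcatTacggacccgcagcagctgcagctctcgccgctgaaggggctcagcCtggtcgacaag
RRM2: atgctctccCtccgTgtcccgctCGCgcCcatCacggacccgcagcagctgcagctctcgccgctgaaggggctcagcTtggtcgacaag

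KIF4B and KIF4A, the kinesin pair named above, differed by 2 bases over the first 90 coding bases of KIF4A (chrX:69510309-69510398, plus strand) and the matching bases of KIF4B (chr5:154393420-154393509, plus strand), in capitals.
KIF4B: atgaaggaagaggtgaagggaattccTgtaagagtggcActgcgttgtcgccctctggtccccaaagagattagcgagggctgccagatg
KIF4A: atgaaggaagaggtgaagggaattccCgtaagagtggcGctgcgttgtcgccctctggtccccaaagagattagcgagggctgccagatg
KIF4B had 1719 and 1678 counts in the control libraries and 913 and 1006 in OE. KIF4A had 233 and 243 counts in the control libraries and 122 and 153 in OE. The retrogene was thus assigned more counts than its multi-exon parent in every library, with 95.4% identity and a longest identical stretch of 151 bases between them, and the pair moved in the same direction.

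For several further copies the parent was lower as well. AURKAPS1, a copy of the mitotic kinase gene AURKA, had 808 and 789 counts in the control libraries and 347 and 421 in OE, while AURKA had 415 and 458 in the vector control and 251 and 329 in OE. AURKAPS1 also shares 1046 of its 1212 exon bases with a transcript of RAB3GAP2, whose own counts were 29 and 39 in the control libraries and 4 and 23 in OE. Over all its transcripts RAB3GAP2 had 3238 and 3256 counts in the control libraries and 1083 and 1306 in OE. Both the parent and the host of AURKAPS1 thus had gaps above 1.5 themselves. LDHAP4 had 7914 and 8501 counts in the control libraries and 5049 and 5847 in OE, and its parent LDHA, lactate dehydrogenase A, had 9549 and 9481 in the vector control and 5428 and 6515 in OE. Of the 3 LDHA copies of at least 4 CPM, LDHAP4 and LDHAP7 were members and LDHAP5 had a gap of 1.26. RP11-121L10.3, a copy of the alpha-tubulin gene TUBA1B, had 19829 and 20379 counts in the control libraries and 12093 and 14681 in OE.

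ACTBP2, a copy of beta-actin (ACTB), and PKMP4, a copy of the pyruvate kinase gene PKM, lay just inside the rule, with gaps of 1.503 and 1.507. ACTBP2 had 119.8 and 127 CPM in the vector control and 79.7 and 75.5 CPM in OE. PKMP4 had 226 and 232 CPM in the vector control and 133 and 149.8 CPM in OE. The third member just inside was the lncRNA RP1-86C11.7 (1.504). Just outside lay RP11-355K23B.1 (1.499), PKMP1 (1.498) and B3GNT1 (1.496), so that 1 copy of PKM was inside and the other outside by a difference of the gap far smaller than the spread between libraries.

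In some pairs the parent did not go along. RP11-567G24.1, a copy of the proteasome gene PSMD2, had 14472 and 14462 counts in the control libraries and 8590 and 10975 in OE. PSMD2 had 600 and 321 counts in the control libraries and 723 and 602 in OE, so most reads of the pair were counted to the pseudogene. FDPSP1 had 560 and 544 counts in the control libraries and 342 and 374 in OE, and FDPS, farnesyl diphosphate synthase, had 336 and 329 in the vector control and 370 and 464 in OE. For the parents SKP1 and PDCL3 the libraries of the conditions overlapped. RP11-424C20.2 had 2039 and 2040 counts in the control libraries and 1366 and 1546 in OE, and TUBB3P1, ATP1B1P1 and SHC1P2 were the other pseudogenes without such a parent in the table.

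**Figure D5:**
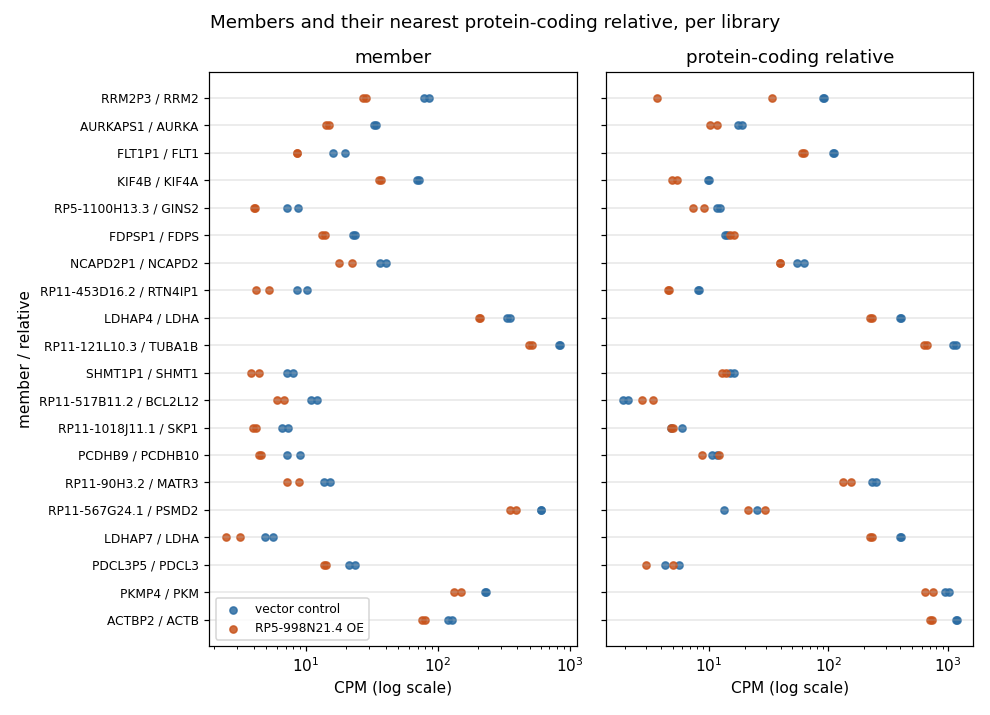
CPM (log scale) of 20 members (left) and of their nearest protein-coding relative (right) in the vector control (blue) and OE (orange) libraries, in the order of the member's gap. The rule keeps the colours apart on the left. On the right they lie apart with OE lower for RRM2, AURKA, FLT1, KIF4A, LDHA and TUBA1B among others, and with OE higher for FDPS and BCL2L12.

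Of all 1042 clone-named loci of at least 4 CPM, 17 were members (1.63%, against 3.02% of the 2414 genes), among them AL132780.1, RP11-140H17.1 and pseudogenes described above, and 31 were raised (3.69% of the 2414 genes were). AC093673.5, a lncRNA of 2 exons on chromosome 7, had 81.2 and 82.1 CPM in the vector control and 35.9 and 37.8 CPM in OE, a gap of 2.15 with close libraries in both conditions. CTD-2540B15.13, a lncRNA within an exon of the lipoprotein receptor gene LRP3, had 274 and 342 counts in the control libraries and 5 and 212 in OE. The 36.9-fold spread between its OE libraries was the widest of all members, and its fitted log2 fold change was -1.80 ± 1.46, or -0.84 without OE library 1 and -6.01 without OE library 2. The bases of both exons of AC004840.9 are shared with CHST12 and RP11-479G22.8 shares 2440 bases with ITGB1. Both were placed by their transcript, which the annotation now lists under those genes, so their counts could shift between isoforms. CHST12 had 68.4 and 28.4 CPM in the vector control and 50.4 and 46.8 CPM in OE. ITGB1, an integrin subunit, had 8090 and 7384 counts in the control libraries and 14478 and 7989 in OE, and its libraries did not follow the order of the member's. RP11-480I12.9 and CTA-445C9.15 completed the 6 members without an annotated kind. All 1033 bases of RP11-480I12.9 are shared with the pseudogene RP11-480I12.7 on the same strand. RP11-480I12.7 had 57 and 104 counts in the control libraries and 36 and 45 in OE.

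For 32 members a RefSeq promoter (GRCh38.p14, 250 bases before to 50 bases after the gene's start) was matched by symbol, and 9 short motifs were searched on both strands, none of which lies within another. CCAAT, the box bound by NF-Y, was in 17 of the 32 windows (53.1%), in 245 of 613 windows of single-transcript genes of at least 4 CPM (40%), in 10 of 33 of the raised genes (30.3%) and in 35.4% of all 27305 promoters. GGGCGG was in 22 of the 32 (68.8%), against 67.7% of the 613 and 43.4% of all. AGATAA was in 5 (15.6%, against 6.2% and 10.7%), TGANTCA in 3 (9.38%, against 5.06% and 7.98%), TATAAA in 2 (6.25%, against 8.97% and 12.3%) and TGACGTCA in 2 (6.25%, against 1.96% and 1.92%). CACGTG, TTTCGCGC and the core of the interferon-stimulated response element were in none, and in 7.83%, 0.653% and 2.61% of the 613. With 32 windows, 1 gene is a change of several percentage points, and a match of letters is not a binding site.

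The 250 bases before the start are shown for 4 of the 17 members with CCAAT whose values are described above, with CCAAT or its reverse complement in capitals. They lie at chr1:205321746-205321995 (minus strand, NUAK2), chr1:200620752-200621001 (minus, KIF14), chr4:121823884-121824133 (minus, CCNA2) and chr22:32801455-32801704 (plus, TIMP3) of GRCh38.p14.
NUAK2: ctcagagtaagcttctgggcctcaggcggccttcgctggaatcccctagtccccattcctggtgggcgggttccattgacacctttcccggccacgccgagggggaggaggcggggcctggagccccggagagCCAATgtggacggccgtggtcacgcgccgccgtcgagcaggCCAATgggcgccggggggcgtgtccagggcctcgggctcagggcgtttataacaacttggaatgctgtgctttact
KIF14: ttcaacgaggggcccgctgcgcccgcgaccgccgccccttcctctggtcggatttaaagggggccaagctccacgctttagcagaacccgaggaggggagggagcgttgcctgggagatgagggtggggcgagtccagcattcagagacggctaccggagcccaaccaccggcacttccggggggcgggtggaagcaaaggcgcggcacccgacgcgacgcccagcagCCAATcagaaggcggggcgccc
CCNA2: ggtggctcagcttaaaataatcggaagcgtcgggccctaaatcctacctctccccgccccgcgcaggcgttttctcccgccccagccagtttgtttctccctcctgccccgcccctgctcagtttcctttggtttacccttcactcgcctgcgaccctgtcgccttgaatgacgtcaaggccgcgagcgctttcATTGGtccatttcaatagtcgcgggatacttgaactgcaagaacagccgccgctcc
TIMP3: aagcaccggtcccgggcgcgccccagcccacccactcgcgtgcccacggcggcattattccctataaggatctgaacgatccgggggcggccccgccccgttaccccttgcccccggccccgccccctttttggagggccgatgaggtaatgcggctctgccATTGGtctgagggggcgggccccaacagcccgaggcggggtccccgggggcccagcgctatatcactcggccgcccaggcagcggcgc
NUAK2 holds the box at 117 and 76 bases before the start, TIMP3 at 88, CCNA2 at 56 and KIF14 at 22, counted to the match's first base on the plus strand of the window.

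In a fit over 20528 genes of the whole table, edgeR's quasi-likelihood test called 64 genes lower in OE at an adjusted p under 0.05 (0.312%), and 10 of the 73 members were among them. As the rule used the same libraries, this count is given as a description of the members' error and not as a test of them.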

How the data were processed

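RNA-seq counts of 4 SK-N-SH libraries were analysed, 2 per condition, grouped by the labels' treatment field (the control titles read WT). The authors mapped reads to hg19 and deposited raw counts, whole numbers with 1 row per transcript. The submitters' processing notes name Bowtie2 2.0.4, Picard 2.21.6, StringTie 2.1.6 and DESeq2. The counting tool, annotation release and use of strand are not given in the sources used here.

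Counts were summed per gene and divided by the column total to give CPM. The members and all gene lists were chosen with earlier results of these data known. A gene was a member at 1 transcript, a mean of at least 4 CPM and a lower control value above 1.5 times the higher OE value. All genes kept by edgeR's filterByExpr (20528) were fitted with edgeR 4.0.16 (R 4.3.3, TMM, quasi-likelihood test, Benjamini-Hochberg adjustment, no covariates), whose fold changes and standard errors are given; the fit was tested on simulated data. DESeq2 1.42.0 and limma-voom (limma 3.58.1) were alternatives. Column totals ran from 23785164 to 28307591, and intervals cover counting error only.

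Positions, kinds and exons came from GENCODE v44 on GRCh37, which held 69 of the 73 member transcripts, and symbols in parentheses are current names. Near copies were found by megablast. Promoters came from RefSeq (GRCh38.p14). Named genes were the protein-coding members of at least 10 CPM (up to 30, by gap), the 10 largest gaps, up to 4 members per gene list by CPM, the 3 on each side of the threshold, and the copies or neighbours of the 10 members with the largest gap that had one. The other pseudogenes, clone-named loci, parents and neighbours, and JUN, CHST3, MT-TC, SLC5A3, MAGEC2 and ADAMTS15, were named after their values were seen. PECAM1 was not analysed here.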

Additional observations from a re-analysis of the deposited data

How the results depend on the processing

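The set of 73 depends on the limits of the rule. The 73 members were 3.02% of 2414 genes. The set held 90 genes (3.73% of 2413) with TMM or RLE library sizes, where 68 were raised, against 89 with column totals. It held 77 (3.12% of 2471, 88 raised) with totals that leave out mitochondrial genes. The 73 members were in all 3 sets. It held 127 genes (3.17% of 4011) at a minimum mean of 1 CPM and 47 (2.78% of 1692) at 10 CPM. It held 180 (7.46%) at the looser limit on the gap that was tried and 18 (0.746%) at a gap above 2. For protein-coding genes alone it held 37 (5.65% of 655). For genes with no near copy and no shared exon it held 31 (5.02% of 617). With 3 libraries it held 94 to 136 genes, most without OE replicate 2 (136). The 73 members were in the sets without either OE library, and 66 and 65 of them without vector control replicates 1 and 2, since the mean of the remaining libraries then fell under 4 CPM for the others. The fitted log2 fold changes of the 73 members stayed below 0 under RLE, DESeq2, the replicate block and each left-out library. The rule set this sign in advance. Only the value of CTD-2540B15.13 moved by over 1.5 times with a library left out (-0.84 without OE library 1 and -6.01 without OE library 2).

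The edgeR count of lowered genes at an adjusted p under 0.05 depends on the tool and on single libraries. It was 64 over all genes and 10 among the members, 66 and 11 with RLE, 52 and 7 with genes of at least 1 count, 173 and 24 with limma-voom and 2150 and 72 with DESeq2. At an unadjusted p under 0.05 edgeR gave 2200 and 72. With 1 library left out, the lone library of a condition being assumed to vary like the pair, it was 5 to 64 over all genes and 0 to 1 among the members. Because the rule used the same libraries, the members' low unadjusted p-values largely follow from it in every setting and are no test of them. With the replicate number as a block (replicate block) edgeR called 0 genes and 0 members, with 1578 and 72 at an unadjusted p under 0.05. The deviations of same-numbered libraries correlated at -0.022 over 15691 genes. The labels give these libraries only a shared number, and whether they share a culture or batch is not known. The cause of these differences was not tested. For the 13 members with under 100 counts in an OE library, counting error limits the precision of the gap.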
